A study of Mus musculus with 36 samples.

Results

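Lysyl oxidase, encoded by Lox, was followed through 9 groups of arrays with all probes that the platform annotation assigns to the symbol Lox. It is 1 of 9930 genes named by the annotation, and has 3 probes, numbered 1602, 18433 and 20301, of 20355 in all. The gene was picked with its values on these arrays known, so its values are given as a description, with standard deviations (SD) or standard errors (SE) and without a test. Lox lies on mouse chromosome 18, and the files name no genome build.

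Total RNA of mouse NIH3T3 fibroblasts, an immortalised embryonic line, was hybridised on 36 dual-colour arrays. The cells carried an Erbb2 transgene under tet-off control, in which tetracycline shuts the transgene down. Channel 1 carried the RNA of each group, with 4 arrays per group: cells left untreated, or given tetracycline for 1, 2, 4, 12 and 24 h and for 3, 5 and 7 days. Untreated Erbb2 cells gave the RNA of channel 2 throughout. Every group, the untreated one included, therefore carried the transgene, and the labels do not say whether the line is 1 clone or which promoter drives it. The design text speaks of a pair of untreated NIH3T3 lines as the control, and the labelling protocol of a pool from control animals, so the RNA in channel 2 is not fully settled. No probe of Erbb2 could be matched, and the shutdown of the transgene was not analysed here. Ratios give no level within a sample, so the fibroblast markers of the cells could not be checked either.

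Lysyl oxidase is a secreted, copper-dependent amine oxidase that oxidises lysine residues of collagen and elastin, the step from which the covalent cross-links of the matrix form. It is made as a proenzyme that Bmp1 and related proteases cleave outside the cell. In NIH3T3 cells Lox is known as the ras recision gene, named for its low expression in cells transformed by RAS and its return in revertants, and Erbb2 signals in part through RAS.

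Values are log2 ratios, centred on each array's median. They are multiplied by -1 on replicates 3 and 4 of each group, where channel 1 was in Cy3 instead of Cy5. A positive value then stands for more Lox RNA in channel 1, on the assumption that ratios were taken as Cy5 over Cy3, which no file states. In bulk RNA, fewer cells of a type and less RNA per cell cannot be told apart. Untreated replicates 1 and 2 held the same values up to a constant and entered as a single array, so that 3 untreated arrays and 35 in all remained. The spread of all probes was wider on the 3 to 7 day arrays, whose interquartile range was 0.697 to 1.42, than on the 1 to 24 h arrays, at 0.357 to 0.504, and the untreated ones, at 0.492 to 0.7. Whether replicates came from separate cultures is not stated, so the spread between arrays may be technical.

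Lox lay lowest 1 h after tetracycline, came back towards the untreated ratio by 24 h and lay above it from 3 to 7 days. The mean of probes 1602 and 18433, which have values at every time, was 0.13 ± 0.38 on the untreated arrays (SD, n = 3). It was -1.62 ± 0.14 at 1 h, -1.02 ± 0.07 at 2 h, -0.86 ± 0.29 at 4 h, -0.59 ± 0.10 at 12 h and -0.34 ± 0.15 at 24 h (SD, n = 4 each). It was 1.32 ± 0.23 at 3 days, 1.54 ± 0.07 at 5 days and 1.39 ± 0.12 at 7 days (SD, n = 4 each). The widest steps between neighbouring times were -1.74 to 1 h against the untreated mean and 1.66 to 3 days against the 24 h mean.

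The order of the groups was taken from the mean of the probes with values at every time, a choice made after seeing the data. From the lowest level it was 1 h, 2 h, 4 h, 12 h, 24 h, untreated, 3 days, 7 days and 5 days. Only 2 pairs of neighbours in this order did not overlap in their arrays. The lowest 2 h array lay 0.39 above the highest 1 h array, and the lowest 3 day array lay 0.62 above the highest untreated array. The share of all genes without overlap in these pairs was not counted. Lox was also chosen for its course, so nothing is read from these gaps. All other neighbours overlapped, so in this mean 2, 4, 12 and 24 h form a run of overlapping groups, and 3, 5 and 7 days are not separated. The mean of all probes gave another picture. There 4 h, at -0.67, lay below 2 h, at -0.64, with overlapping arrays. The lowest 3 day array, at 0.24, lay below the highest untreated array, at 0.49. The highest 3 day array, at 0.97, lay below the lowest 7 day array, at 1.23. The probe left out has no values at 5 and 7 days, so that last gap compares different sets of probes.

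Probe 1602 read -0.42, 0.23 and 0.41 on the untreated arrays. It read -1.51, -1.42, -1.47 and -1.75 at 1 h and -1.11, -1.17, -1.11 and -1.20 at 2 h. All of these treated arrays lay below every untreated array, and both dye orientations gave the low value. At 4 h the values were -0.93, -0.79, -1.06 and -0.79, at 12 h -0.38, -0.41, -0.95 and -0.98, and at 24 h 0.05, -0.53, -0.49 and -0.46. At 12 h the Cy5 arrays overlapped the lowest untreated array and the Cy3 arrays were lower. Probe 1602 read 1.30, 1.81, 0.39 and 0.61 at 3 days, 1.60, 1.67, 1.43 and 1.49 at 5 days and 1.57, 1.51, 1.10 and 1.51 at 7 days. All arrays of 5 and 7 days lay above every untreated array, whereas 1 of the 3 day arrays did not.

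Probe 18433 read -0.18, 0.31 and 0.42 on the untreated arrays. It read -1.57, -1.90, -1.49 and -1.83 at 1 h, -1.08, -0.68, -0.995 and -0.80 at 2 h, and -1.57, -1.01, -0.40 and -0.37 at 4 h. Every one of these arrays was below the lowest untreated array, the 4 h arrays with a wide gap between the Cy5 and the Cy3 orientation. It read -0.52, -0.83, -0.22 and -0.41 at 12 h and -0.41, -0.39, -0.47 and -0.07 at 24 h. It read 0.76, 1.37, 2.12 and 2.18 at 3 days, 1.41, 1.60, 1.69 and 1.47 at 5 days and 1.24, 1.27, 1.37 and 1.54 at 7 days. All 12 of the late arrays lay above every untreated array. At 3 days the dye orientations went opposite ways in the probes: the Cy3 arrays were the higher ones for probe 18433 and the lower ones for probe 1602.

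**Figure D1:**
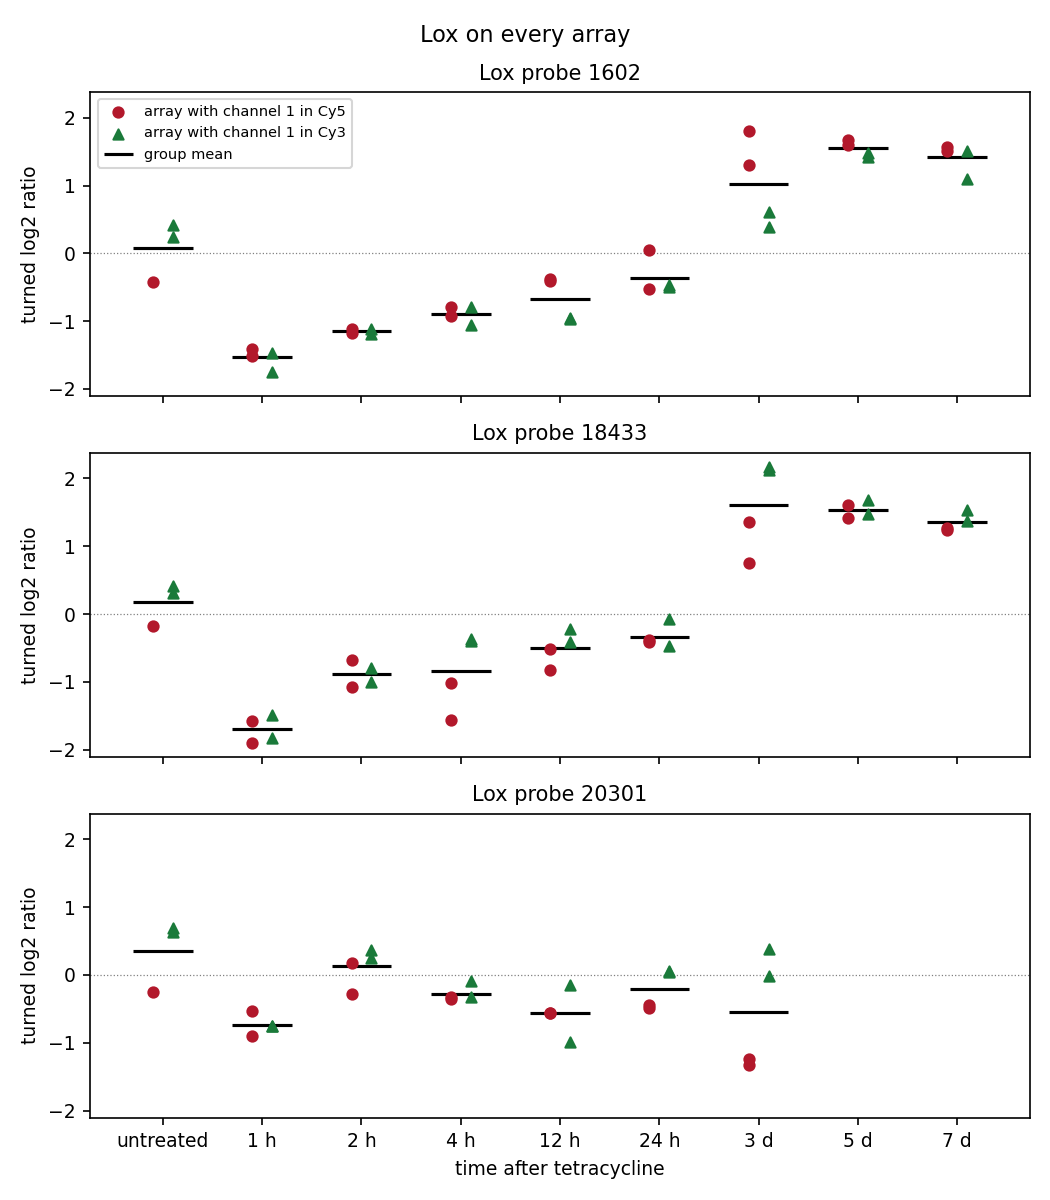
Turned log2 ratio of each Lox probe on each array, by time after tetracycline, with arrays of channel 1 in Cy5 as circles, those in Cy3 as triangles and the group mean as a bar. Probes 1602 and 18433 sit near -1.54 and -1.70 at 1 h and near 1.55 and 1.54 at 5 days, while probe 20301 averages -0.55 at 3 days and has no value at 5 and 7 days.

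The third probe gave another course. Probe 20301 read -0.25, 0.69 and 0.63 on the untreated arrays and -0.54, -0.90, -0.75 and -0.75 at 1 h, where all arrays were again below every untreated one. It averaged 0.13 ± 0.28 at 2 h, -0.28 ± 0.13 at 4 h, -0.56 ± 0.35 at 12 h and -0.21 ± 0.30 at 24 h (SD, n = 4 each). At 3 days it read -1.33, -1.24, 0.39 and -0.01, so its Cy5 arrays were lower than any untreated array and its Cy3 arrays lay among them. Over the 35 arrays probes 1602 and 18433 had a Spearman rho of 0.86, whereas probe 20301 had a rho of 0.10 with probe 1602 and 0.25 with probe 18433 over 27 arrays. These are descriptions over arrays that share groups and a dye orientation. The low ratio at 1 h was thus read by all 3 probes, and the high ratio at 3 days by 2 of 3.

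The late values rest on where the deposited values stand. The 8 arrays of 5 and 7 days were deposited out of step with the probe numbers, by 1 row more after each of 4 points, near rows 6055, 7305, 7803 and 18385, and 5 day replicate 1 was displaced by 1 row more throughout. Probe 1602 lies before the first of these points and was affected only on that replicate. Probe 18433 lies after the last, so its values were taken 4 rows above its own row, or 5 rows above on 5 day replicate 1. At its own row the 8 arrays held values between -1.10 and 0.18. After the move they ran from 1.24 to 1.69 (5 day replicate 4 held a higher value, 2.05, 3 rows above), beside 1.10 to 1.67 for probe 1602 on the same arrays. Probe 20301 could not be placed with enough certainty and was left out on these 8 arrays.

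**Figure D2:**
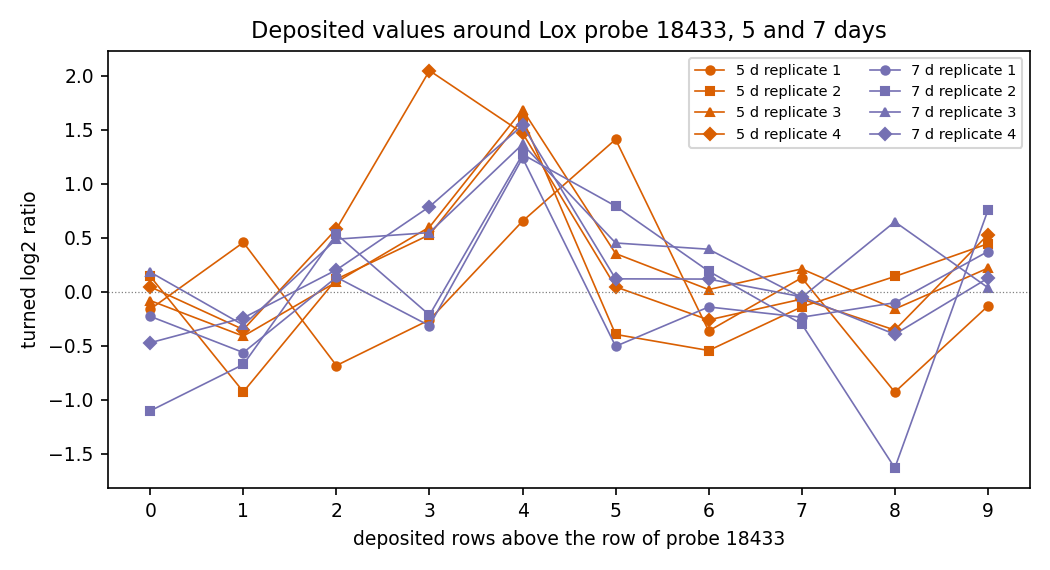
Deposited value (turned log2 ratio) at the row of Lox probe 18433 and at each of the 9 rows above it, for the 4 arrays of 5 days and the 4 of 7 days. The values are 1.24 to 1.69 at 4 rows above on 7 arrays and 1.41 at 5 rows above on 5 day replicate 1. On 5 day replicate 4 the value at 3 rows above, 2.05, is higher than its 1.47 at 4 rows above.

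Against the untreated arrays, with a dye effect fitted over all groups, Lox as the mean of its probes was 2.83-fold lower at 1 h (log2 difference -1.50, SE 0.16). That difference had rank 27 from the lowest of 9201 genes, whose percentiles 1 to 99 ran from -0.96 to 1.60. The difference was -0.81 at 2 h, -0.85 at 4 h, -0.76 at 12 h and -0.48 at 24 h (SE 0.16 each), with ranks from the lowest of 81, 61, 188 and 525. At 3 days it was 0.52 (SE 0.16), at 5 days 1.43 (SE 0.16; 2.69-fold higher) and at 7 days 1.27 (SE 0.16; 2.42-fold higher). The late differences had ranks from the highest of 1452, 171 and 239, lower than the 99th percentile of all genes at each of these times. Probe 20301 enters the mean up to 3 days, and without it the 3 day difference was 1.20. The early direction and the size of the late differences rest on the ratios running by dye. With the Cy3 arrays left as deposited the difference was 0.41 at 1 h (SE 0.81), and it was above 0 at 2, 4, 12 and 24 h too. At 3 days it was 0.14, and at 5 and 7 days it was likewise smaller than after turning. At 1 h the Cy5 arrays then read -1.21 and -1.41 and the Cy3 arrays 1.24 and 1.44, and nearly cancelled. The untreated arrays were then all below 0, so the 0.41 is not a rise shared by the 1 h arrays. Were the numerator Cy3, every sign here would be the opposite.

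The probes disagreed at 3 days. By probe the difference was 0.92 for probe 1602, 1.48 for probe 18433 and -0.83 for probe 20301 (SE 0.23, 0.23 and 0.28). The mean over all 3 probes was 0.30 at 3 days without untreated replicate 1. Leaving out that array gave -1.72 at 1 h, 1.21 at 5 days and 1.06 at 7 days. At 5 days the probes gave 1.43 and 1.42, and at 7 days 1.31 and 1.23.

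In the mean of all probes, every array of 1, 2, 4 and 12 h lay below every untreated array, and every array of 5 and 7 days above. Among all genes 3.79% lay below in this way at 1 h, 3.35% at 2 h, 2.49% at 4 h and 2.75% at 12 h, and 4.34% lay above at 5 days and 3.88% at 7 days. Since Lox was chosen for its course, nothing is read from these shares. The untreated arrays themselves were split by dye, with the Cy5 array at -0.29 and the Cy3 arrays at 0.41 and 0.49. As deposited, before turning, all 3 were negative.

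**Figure D3:**
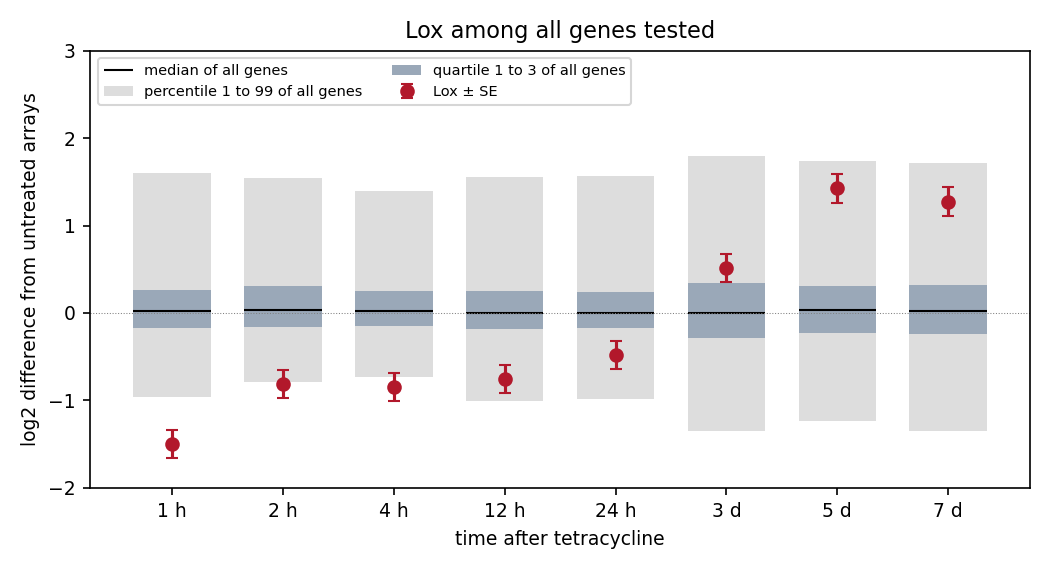
Log2 difference of Lox from the untreated arrays at each time (mean of its probes, bars ± SE), over the quartiles and the percentiles 1 to 99 of all genes tested. Lox lies below percentile 1 at 1, 2 and 4 h and between quartile 3 and percentile 99 from 3 to 7 days.

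The paralogs of Lox, which oxidise the same kind of lysine residues, did not pass the test at any time. Of all genes only 0.0218% to 1.63% were called at these times, so 0 of 3 genes is near the background. Loxl1 had a log2 difference of -0.22 at 1 h and 0.07 at 7 days, Loxl2 of 0.17 and 0.23, and Loxl3 of 0.38 and 0.88 (limma, adjusted p at least 0.491 for all 6). Their untreated arrays spread widely, with an SD of 0.47 for Loxl1, 0.39 for Loxl2 and 0.71 for Loxl3, so differences of the size of their estimates were not resolved. A probe for Loxl4 could not be matched.

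Among the genes that make, cross-link or bind collagen, some of the collagen chains on which lysyl oxidase acts were lower at the earliest times: 4 of 11 substrate genes tested passed at 1 h, 3 at 2 h, 2 at 4 h and 0 at 12 and 24 h, all lower. At an unadjusted p under 0.05 there was 1 at 12 h and 0 at 24 h. Of 42 genes of this list tested at 1 h, with Lox left out, 5 passed the test, all of them lower (limma, adjusted p under 0.05), against 0.239% of all genes called. These were Col1a1 and Col1a2, the chains of collagen I (-1.29 and -1.01, adjusted p = 1.82e-06 and 0.0144), Col3a1, the chain of collagen III (-1.47, adjusted p = 0.00157), Col5a2, a chain of collagen V (-1.04, adjusted p = 0.0178), and Postn. Postn encodes periostin, a matrix protein that binds Bmp1 and favours the activation of lysyl oxidase, and had the lowest difference of them (-1.84, adjusted p = 0.00072). The median of the 42 genes was 0.00, beside 0.02 over all genes, so most of the list had no such difference. Without untreated replicate 4, or without 1 h replicate 2, 3 genes of the list were called. A fit of the 1 h and untreated arrays alone called 0 of them, but it called 0 of all genes too, so nothing about the list is read from it. With the Cy3 arrays not turned, 0 of the list and 65 of all genes were called. Fits of a single time with the untreated arrays called 0 of the list at every other time. Of all genes such fits called 0 at 2 h, 1 at 4 h and 0 at 12 h.

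At 2 h 4 of 43 genes passed, all lower, Col1a1, Col1a2, Col3a1 and Postn, against 0.538% of all genes called. At 4 h Col1a1, Col3a1 and Postn fell, 3 of 43 against 0.257%. At 12 h and 24 h Postn alone fell, 1 of 43 against 0.0218% and 0.0219%, with differences of -1.79 and -1.74. Postn thus stayed low at 24 h, where Col1a1 had a difference of 0.18 and Lox of -0.48. Untreated replicate 4 carried weight here: without it 2 genes were called at 2 h, 0 at 4 h and 0 at 24 h. At 4 h 1 gene was called without untreated replicate 3, 4 h replicate 1 or 4 h replicate 3.

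At the late times Col1a1 was higher, while Postn and Col3a1 did not pass the test. At 3 days Col1a1 rose by 0.61 (limma, adjusted p = 0.0361), 1 of 43 genes against 0.5% of all genes called. At 5 days Col1a1 (0.55, adjusted p = 0.0388) and Fbln5 (0.83, adjusted p = 0.0162) rose, 2 of 43 against 1.63%. Fbln5 encodes fibulin 5, which organises elastic fibres. These counts moved with single arrays. At 3 days the count was 0 without untreated replicate 3 or 4 or without 3 day replicate 4. It was 2 without untreated replicate 1 or 3 day replicate 3, and 3 without 3 day replicate 1 or 2. At 5 days the count was 0 without untreated replicate 3 or 5 day replicate 2, and 1 without any single one of the other arrays of these groups.

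At 7 days 4 genes rose and 1 fell, 5 of 43 against 1.04% of all genes called. Col1a1 (1.11, adjusted p = 5.34e-05) and Col1a2 (1.39, adjusted p = 0.000231) rose, as did Fbln5 (1.20, adjusted p = 0.000691) and Serpinh1 (0.76, adjusted p = 0.00572), the collagen chaperone of the endoplasmic reticulum. Fn1, which encodes fibronectin, a binding partner of lysyl oxidase, fell (-0.89, adjusted p = 0.005). The median of the list was 0.38, beside 0.02 over all genes. The elastin gene Eln, another substrate, had differences of 0.14 at 1 h and 0.27 at 7 days and did not pass the test.

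**Figure D4:**
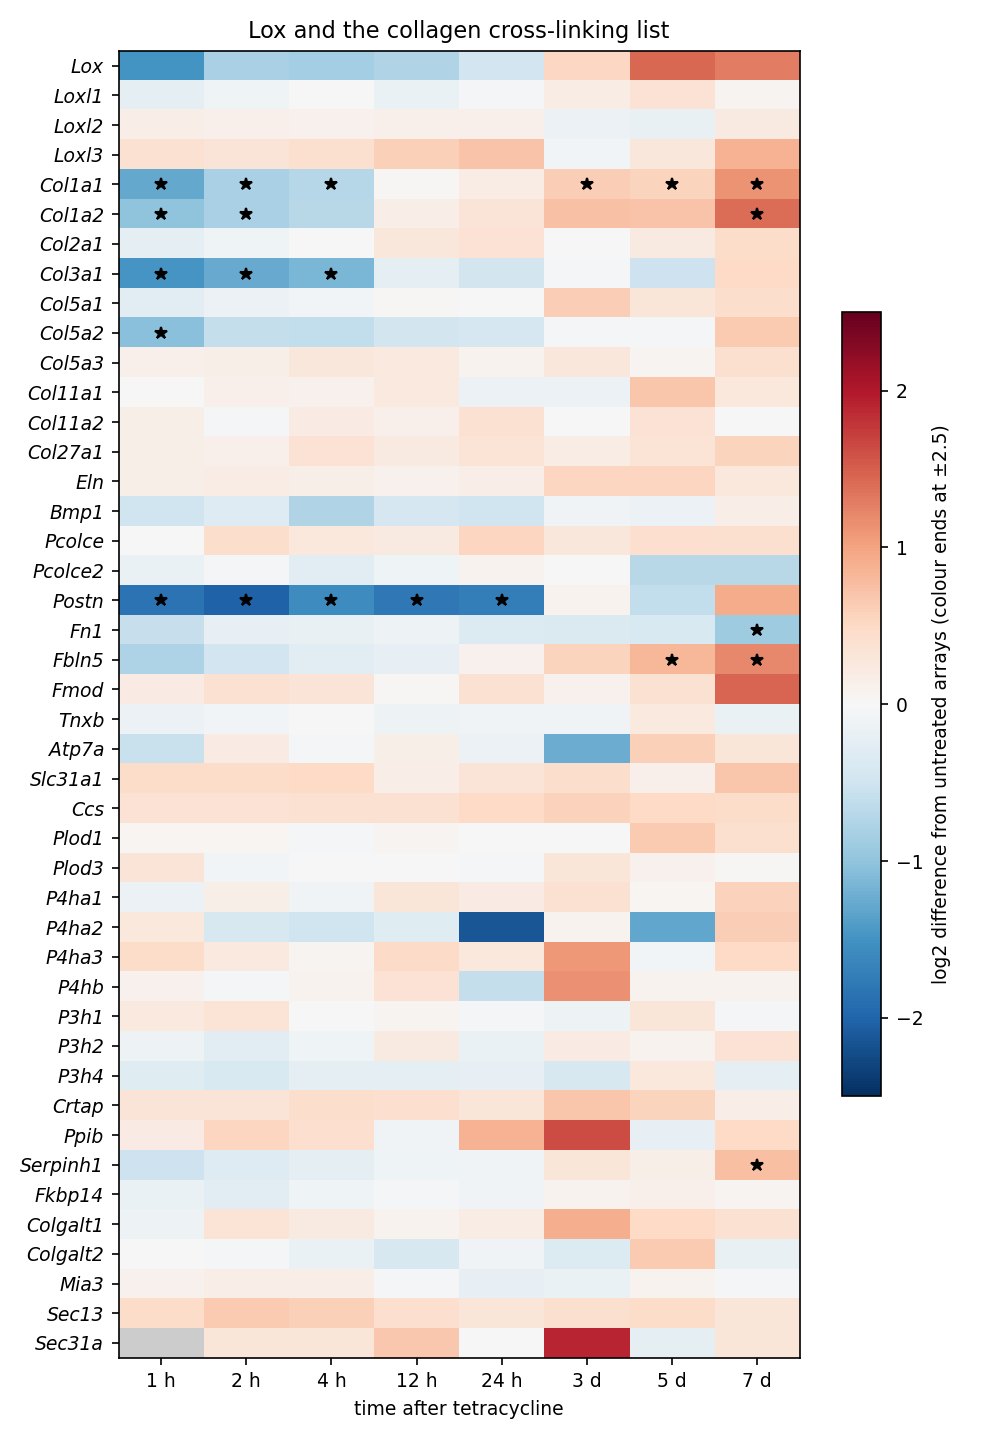
Log2 difference from the untreated arrays by time for Lox and the genes of the collagen cross-linking list, in the order paralogs, substrates, processing and binding partners, and biosynthesis enzymes. Stars mark genes other than Lox with an adjusted p under 0.05 (limma), and grey marks a gene not tested. Stars in blue gather on Col1a1, Col1a2, Col3a1 and Postn at 1 to 4 h, and stars in red on Col1a1, Fbln5, Col1a2 and Serpinh1 at 5 and 7 days.

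The ends of the course were also set against each other, a comparison that does not use the untreated mean and was added after the data were seen. The untreated arrays still entered the dye effect and the estimate of the spread in the shared fit. Lox, as the mean of probes 1602 and 18433, was 1.39 ± 0.12 at 7 days and -1.62 ± 0.14 at 1 h (SD, n = 4 each), a log2 difference of 3.01 (SE 0.15). The arrays of these times did not overlap. The share of all genes without overlap between these times was not counted, and Lox was chosen for its course, so nothing is read from this. Of 43 genes of the list 8 passed the test, all higher, against 2.31% of all genes called, and leaving out single arrays gave 7 to 9. Postn (2.76), Col1a1 (2.40), Col1a2 (2.30), Fbln5 (1.97), Col3a1 (1.97), Col5a2 (1.69), Serpinh1 (1.26) and Col5a1 (0.72) were the 8 genes, with adjusted p (limma) between 2.07e-13 and 0.0497. Loxl1 had 0.29, Loxl2 0.06 and Loxl3 0.50 in the same comparison, none of which passed the test. The comparison shares its 7 day and 1 h arrays with those against the untreated arrays.

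Genes known to feed into Lox transcription were examined as further lists. None of up to 13 genes of TGF-beta, hypoxia and interferon signalling tested passed at any time against the untreated arrays (limma, up to 2 of them at an unadjusted p under 0.05 at one time). Over all genes only 0.0218% to 1.63% were called at these times, so a count of 0 among so few genes is near the background. Between 7 days and 1 h 1 of 12 passed, against 2.31% of all genes. This was Irf1, an interferon-induced transcription factor, which rose by 2.83 (adjusted p = 0.00198), with 1.45 ± 1.25 at 7 days and -1.38 ± 0.45 at 1 h (SD, n = 4 each). Of the ERBB and RAS genes Egr1, an early-response transcription factor downstream of the MAP kinases, fell at 2 h (-2.24), 4 h (-2.90), 12 h (-2.21), 24 h (-3.32) and 3 days (-1.46), with adjusted p between 7.5e-08 and 0.00811. It was 1 of 8 genes of its list tested at 2, 4 and 24 h and 1 of 7 at 12 h and 3 days, against 0.538%, 0.257%, 0.0219%, 0.0218% and 0.5% of all genes called at 2, 4, 24 and 12 h and 3 days, and no other gene of that list passed. At 1 h, where Lox was lowest, Egr1 had a difference of -0.20 and did not pass the test. It had no value at 5 and 7 days.

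The genes whose course was most like that of Lox were ranked among 8491 genes. The measure was Spearman rho with the mean of Lox probes 1602 and 18433 over the 35 arrays. Probe 20301, which has no values at the latest times, was left out of this mean. Adamts1, a secreted metalloprotease, came first with a rho of 0.94. It was followed by Col1a1 at 0.91, Dcn (decorin, a proteoglycan that binds collagen fibrils) at 0.90, Gas1 (a membrane protein of growth arrest) at 0.89, Col6a1 (a chain of collagen VI) at 0.89, Dpt (dermatopontin, a matrix protein) at 0.89, Col1a2 at 0.88 and Pja2 (a ubiquitin ligase) at 0.88. At the other end were Ctsl (the lysosomal protease cathepsin L) at -0.88, Hmgcs1 (an enzyme of cholesterol synthesis) at -0.88 and Kpna2 (a nuclear import receptor) at -0.87. Over all genes the median rho was 0.00, and 42 genes were above 0.7. The arrays share 9 groups and a reference RNA, so these are likenesses of group courses and carry no test.

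The group means at both ends of this ranking show the shared and the opposite course. Adamts1 averaged 0.15 ± 0.56 on the untreated arrays (SD, n = 3), -2.09 ± 0.20 at 1 h, -1.71 ± 0.15 at 4 h, -0.63 ± 0.14 at 24 h, 1.22 ± 0.48 at 3 days and 0.70 ± 0.15 at 7 days (SD, n = 4 each). Ctsl ran the other way, with 0.39 ± 0.29 on the untreated arrays (SD, n = 3), 1.49 ± 0.21 at 1 h, 1.95 ± 0.24 at 2 h and -0.94 ± 0.19 at 7 days (SD, n = 4 each). With the 3 to 7 day arrays left out, over 23 arrays, Adamts1 again ranked 1 with a rho of 0.92, and 5 of the 8 most alike genes were again among the first 8. Of the collagen cross-linking list 41 genes were ranked, with a median rho of 0.21. Of these, 8 were among the first 50 genes: Col1a1, Col1a2, Fbln5 (rho 0.87, rank 9), Serpinh1 (0.84, rank 14), Col5a2 (0.81, rank 21), Col3a1 (0.74, rank 30), Col5a1 (0.74, rank 32) and Postn (0.70, rank 44). The next was Col2a1 at rank 157. Loxl1 had a rho of 0.47, Eln of 0.28, Loxl3 and Loxl2 of -0.15 each, Fn1 of -0.18 and Pcolce2 (an enhancer of procollagen cleavage) of -0.26, and 11 of the 41 were below 0.

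**Figure D5:**
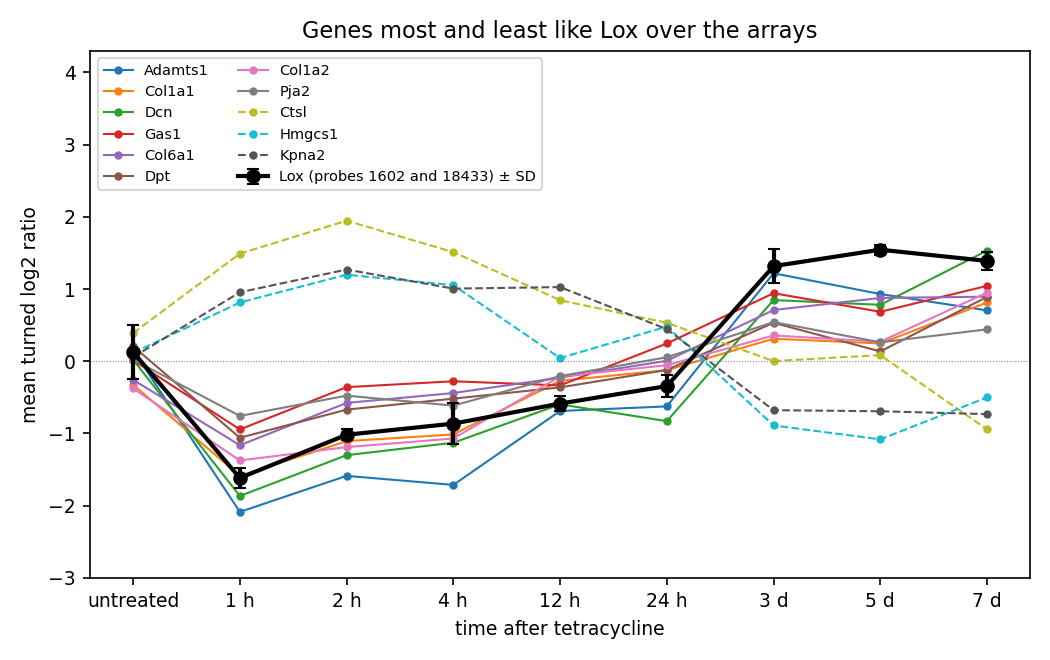
Group means of the turned log2 ratio by time for Lox (probes 1602 and 18433, thick line, bars ± SD), the 8 most alike genes (solid lines) and the 3 least alike genes (dashed lines). The solid lines dip at 1 h, Adamts1 to -2.09, and lie above 0 from 3 days on, while Ctsl peaks at 1.95 at 2 h.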

How the data were processed

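Each deposited value is a log2 ratio between both channels of an array. The software, background correction, normalization and numerator are not given in the sources used here. Gene symbols came from the platform annotation: 14030 probes had 1 symbol, 5 several and 6320 none, for 9930 genes. The 2807 values above 12, a shared ceiling, were set to missing, each array was centred on its median, and those arrays whose channel 1 was in Cy3 took the opposite sign. A constant of 0.771 (SD 0.000507) separated untreated replicates 1 and 2, which were averaged. Rows of the 5 and 7 day arrays were placed by a hidden Markov model on predictions from the other arrays, and 454 probes with a posterior under 0.99 were left out there. On simulated slides 99.87% of the rows kept were placed right. Arrays held 17508 to 20010 values before those above the ceiling were set to missing. They carry no read depth, and their number limits the precision.

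Probes of a gene were averaged. All 35 arrays entered 1 limma 3.58.1 fit in R 4.3.3, with group means, 1 dye effect, eBayes and Benjamini-Hochberg adjustment over all genes with at least 3 values in each group compared. An adjusted p under 0.05 was called. On simulated data for 1 h against untreated (8689 genes), 36.7% of changes of 1 log2 unit and 72.4% of changes of 2 were recovered, with 4 unchanged genes called. Lox, the gene lists and the rules were chosen with earlier results of these data known. Genes were named if called (at most the 4 of largest difference per list and time), if among the 8 most or 3 least like Lox, or if of the lysyl oxidase family, and Eln, Col2a1 and Pcolce2 were named after their values were seen. The cross-linking list holds 57 genes besides Lox. Same-numbered replicates did not deviate together (mean correlation 4.15e-05 over 112 pairs, none over 0.1), so numbers were not used as pairs. Alternatives varied the turning, dye effect, centring, normalization, ceiling, array weights, arrays, untreated level and row placement. Tables were drawn up with Python 3.11.15.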

Additional observations from a re-analysis of the deposited data

Results flagged for a closer look

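On single probes, 3 values of Lox stood far from the other arrays of their group by Dixon's criterion. These were probe 1602 on 24 h replicate 1, at 0.052 and above its group, probe 1602 on 7 day replicate 3, at 1.10 and below its group, and probe 20301 on 4 h replicate 3, at -0.09 and above its group. They were found among 38 groups of 4 arrays examined, and chance alone singles out about 0.05 of such groups. The 38 include groups of the means over probes, which are built from the same values. Single probes thus make up only part of them, and the groups are not independent.

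The direction of Lox against the untreated mean was opposite early and late. Every array of 1 to 24 h lay below the untreated mean and every array of 3 to 7 days above it. In the mean of probes 1602 and 18433, 3 days minus 1, 2, 4, 12 and 24 h came to 2.93, 2.33, 2.18, 1.90 and 1.66. For 5 days minus the same times it came to 3.16, 2.56, 2.41, 2.13 and 1.89, and for 7 days to 3.01, 2.41, 2.25, 1.98 and 1.73. These differences were not tested.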

How the results depend on the processing

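Of 178 alternatives for the mean of Lox probes, 158 left its value within 1 SD, 14 moved it and 6 turned its sign. All 169 of these that turned the Cy3 arrays kept the sign at every time. Single probes taken alone were counted apart: of 24 such values 7 moved and 1 had the opposite sign to the mean. With the Cy3 arrays not turned, Lox was 0.41 at 1 h, 0.34 at 2 h, 0.23 at 4 h, 0.43 at 12 h, 0.33 at 24 h, 0.14 at 3 days, 0.36 at 5 days, 0.34 at 7 days and -0.00775 at 7 days minus 1 h. The labels give the dyes, but no file states whether the ratios run by dye or by channel, or which is the numerator. As deposited and centred, the mean of Lox probes changed sign with the dye at 1 h and at 5 days. It read -1.21 and -1.41 on the Cy5 arrays of 1 h and 1.24 and 1.44 on the Cy3 arrays. At 5 days it read 1.51 and 1.64 (Cy5) and -1.56 and -1.48 (Cy3). The untreated arrays were negative in both dyes. Whether the ratios run by dye was not tested. Quantile normalization gave -2.01, -1.47, -1.41 and -1.05 at 1, 2, 4 and 12 h and 0.10, 1.05 and 0.91 at 3, 5 and 7 days. With rows not moved back Lox was 0.55 at 5 days, 0.40 at 7 days and 2.13 at 7 days minus 1 h. Probes 1602 and 18433 alone, chosen after seeing the data, gave -1.13 at 2 h and 1.20 at 3 days. Probe 20301 alone gave -0.83 at 3 days, where the mean of all probes was 0.52. Leaving out 1 array gave -1.72 to -1.39 at 1 h, -1.03 to -0.70 at 2 h, -1.06 to -0.73 at 4 h, -0.97 to -0.64 at 12 h, -0.69 to -0.36 at 24 h, 0.30 to 0.64 at 3 days, 1.21 to 1.56 at 5 days, 1.06 to 1.4 at 7 days, and 2.94 to 3.07 for 7 days minus 1 h.

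Counts of the cross-linking list changed in 106 of 170 alternatives, in 69 of them by over 1.5 times or to or from 0. Fits of only the 2 groups called 0 genes of the list at all 8 times against the untreated arrays, and 7 for 7 days against 1 h. Of all genes they called 0, 0, 1 and 0 at 1, 2, 4 and 12 h, so the list counts there carry no information. The cause was not tested. Cy3 arrays not turned gave 0 at 1, 2, 4, 12 and 24 h and 5 days, 4 at 3 days, 1 at 7 days and 0 for 7 days against 1 h. Of all genes 65, 69, 68 and 104 were then called at 1, 2, 4 and 12 h. Treated arrays against 0 gave 7 at 2 h, 2 at 24 h, 7 at 3 days, 5 at 5 days and 11 at 7 days, with 250 of all genes called at 2 h. Array weights gave 8 at 1 h, 8 at 2 h, 5 at 4 h, 4 at 24 h and 0 at 3 days. Of all genes they called 430, 733 and 377 at 1, 2 and 4 h, where the main fit called 22, 50 and 24. The larger list counts thus go with many more calls among all genes. Quantile normalization gave 8 at 1 h, 5 at 4 h, 0 at 24 h, 3 and 5 days and 1 at 7 days, with 89 of all genes called at 1 h and 80 at 4 h. Values not centred gave 2 at 2 h, 1 at 4 h and 0 at 3, 5 and 7 days. A dye effect for each group gave 2 at 3 days and 4 at 5 days, and no dye effect 0 and 1. Rows not moved back gave 0 at 3 and 5 days, and untreated replicates 1 and 2 as separate arrays 3 and 4. Leaving out 1 array gave 3 to 5 at 1 h, 2 to 4 at 2 h, 0 to 3 at 4 h, 1 at 12 h, 0 to 1 at 24 h, 0 to 3 at 3 days, 0 to 1 at 5 days, 5 to 6 at 7 days and 7 to 9 for 7 days against 1 h. Estimated array weights were 0.11 to 0.581 for the 3 to 7 day arrays and 0.932 to 4.20 for those of 1 to 24 h. With the 3 to 7 day arrays left out, 5 of the 8 genes most like Lox were again among the first 8.

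With the replicate number as a block, which pairs no samples here, 1 gene was called at 5 days in place of 2, 3 at 2 h in place of 4 and 6 at 7 days in place of 5. The other counts were the same, and every Lox value stayed within 1 SD.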
